A study of Mus musculus with 25 samples.

Results

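Intestinal iron handling was described through 9 genes, taken as the rows of the deposited expression table that carry the symbols Cybrd1, Slc11a2, Slc40a1, Heph, Tfrc, Fth1, Ftl1, Hmox1 and Epas1, out of 35723 genes in that table. All 9 were found once each, and all 9 passed the filter on low counts. The study sequenced jejunum, the middle stretch of the small intestine, from mouse pups in 25 libraries, 5 in each of 5 groups. Pups entered the study at 14 days of age. In the EW+HMOs group they were weaned early, at day 15, and received 2'-fucosyllactose (2'-FL) together with lacto-N-neotetraose (LNnT), which are oligosaccharides of human milk. The EW+2'-FL and EW+LNnT groups were weaned at day 15 and received the named oligosaccharide alone. The EW group was weaned at day 15 without an oligosaccharide, and the Control pups suckled normally and were euthanized at day 21. The labels give no dose, no strain, no sex and no collection day for the early-weaned pups, and nothing in them ties a library to its own animal. The p-values therefore cover only the spread between these libraries, which may be technical.

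Dietary iron that is not in haem enters an enterocyte through the brush border, the membrane that faces the gut lumen. The reductase encoded by Cybrd1 (duodenal cytochrome b) turns ferric into ferrous iron, and the transporter encoded by Slc11a2 (DMT1) carries the ferrous iron in. Ferritin, built from the heavy chain Fth1 and the light chain Ftl1, stores it. Ferroportin, encoded by Slc40a1, releases it to the blood side, where hephaestin, encoded by Heph, oxidises it again. Transferrin receptor (Tfrc) takes up iron from plasma transferrin, mainly in dividing crypt cells, and haem oxygenase (Hmox1) frees iron from haem. Epas1 encodes HIF-2 alpha, a hypoxia-inducible transcription factor subunit that is known to raise Cybrd1, Slc11a2 and Slc40a1 transcription in the iron-poor intestine. Suckling rodents take their iron from milk and switch to solid food at weaning.

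Several of these mRNAs are also controlled through iron-responsive elements, short hairpins with an unpaired C and a CAGTGN loop that are bound by iron regulatory proteins. In the 5′ untranslated part such a hairpin blocks translation when iron is low, and in the 3′ untranslated part it protects the mRNA from decay. The hairpin letters (a C, 5 bases, CAGTGN, then 5 bases that pair with the first 5, with G-U pairs and 1 unpaired base allowed) were searched on the transcribed strand of the untranslated parts of GENCODE M21 transcripts. Of the 9 genes 6 held a match, 4 in the 5′ part and 2 in the 3′ part. Over all 21901 protein-coding genes searched, 0.356% had a match in the 5′ part and 1.61% in the 3′ part. The sites are shown because they mark which of the 9 mRNAs carry this control, and they are printed 5′ to 3′ as DNA letters with the unpaired C and the loop in capitals. They come from the GRCm38 build, on the plus strand for Fth1, Epas1 and Tfrc and on the minus strand for Ftl1, Slc40a1 and Slc11a2. The first 4 lie in 5′ untranslated parts, at chr19:9982732-9982760 (Fth1), chr7:45459779-45459807 (Ftl1), chr1:45925465-45925493 (Slc40a1) and chr17:86753768-86753796 (Epas1), and the other sites in 3′ untranslated parts.
Fth1: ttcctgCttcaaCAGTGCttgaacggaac
Ftl1: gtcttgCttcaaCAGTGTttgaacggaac
Slc40a1: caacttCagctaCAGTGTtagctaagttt
Epas1: tacaatCctcggCAGTGTcctgagactgt
Slc11a2: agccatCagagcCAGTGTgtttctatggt
Tfrc site 1: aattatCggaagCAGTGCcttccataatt
Tfrc site 2: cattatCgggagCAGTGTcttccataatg
Tfrc site 3: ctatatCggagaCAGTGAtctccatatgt
Tfrc site 4: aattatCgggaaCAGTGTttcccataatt
The Slc11a2 site is at chr15:100395153-100395181. The Tfrc sites are at chr16:32631219-32631247, chr16:32631598-32631626, chr16:32631663-32631691 and chr16:32631710-32631738, within one untranslated part. The Epas1 and Slc11a2 sites matched only with the 1 unpaired base allowed on the 3′ arm. The Fth1 and Ftl1 hairpins are identical from the unpaired C through CAGTG. Cybrd1, Heph and Hmox1 had no match, which says only that these letters are not in their untranslated parts. A gene-level count joins Slc11a2 transcripts with and without the hairpin, and transcript counts do not show translation.

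The libraries held 58.7 to 89.6 M counts each, and libraries of the same group had Spearman correlations of 0.924 to 0.983. Enterocyte markers were abundant in every library (summed FPKM 13710 to 46937 over 8 genes), and Fabp6, a marker of the distal small intestine, lay under 0.05 FPKM in 24 of 25 libraries. The other genes on the distal list did not, with Slc10a2 at 0.0508 to 0.941 FPKM and Slc51b at 54 to 112 FPKM, and of the proximal list Gata4 was 24.2 to 56.1 FPKM and Onecut2 3.14 to 8.44 FPKM. On the first principal component, which held 19.5% of the variance, EW+2'-FL 1, EW+LNnT 1 and EW+LNnT 2 scored 142 to 210.7, EW 1 scored 66.1, and each other library was at or below 15.7. These 4 libraries also had the 4 lowest summed levels of 7 crypt and proliferation markers (72.4 to 140 FPKM). Pancreatic acinar genes summed to 325 to 3642 FPKM in EW+2'-FL 5, EW+LNnT 1, EW+LNnT 2, EW 1, Control 2 and Control 3, against at most 2.55 FPKM in the other libraries, where Pnlip and Try5 lay under 0.05 FPKM. Y-linked transcripts were present in 3 EW+HMOs, 4 EW+2'-FL, 2 EW+LNnT and 4 EW libraries, while 4 of 5 Control libraries had Xist and no Y-linked transcripts and Control 2 had both. In whole tissue, fewer cells of a type and less RNA per cell cannot be told apart.

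Levels are the deposited FPKM, fragment numbers scaled by the authors to transcript length and library size, which can be compared between genes. The order of the 9 genes by median level over the 25 libraries ran from the ferritins to the brush-border reductase. Fth1 had a median of 1051 FPKM and Ftl1 of 535 FPKM, and Fth1 was the higher in 24 of 25 libraries. Heph (41.5 FPKM) and Tfrc (39.5 FPKM) followed and were not separated from each other, since Heph was the higher in 14 of 25 libraries. Epas1 (17.7 FPKM) and Slc11a2 (15.2 FPKM) were likewise close, with Epas1 higher in 16 of 25. Slc40a1 stood at 10.3 FPKM, Hmox1 at 2.33 FPKM and Cybrd1, the lowest, at 1.42 FPKM, below Hmox1 in 18 of 25 libraries.

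**Figure D1:**
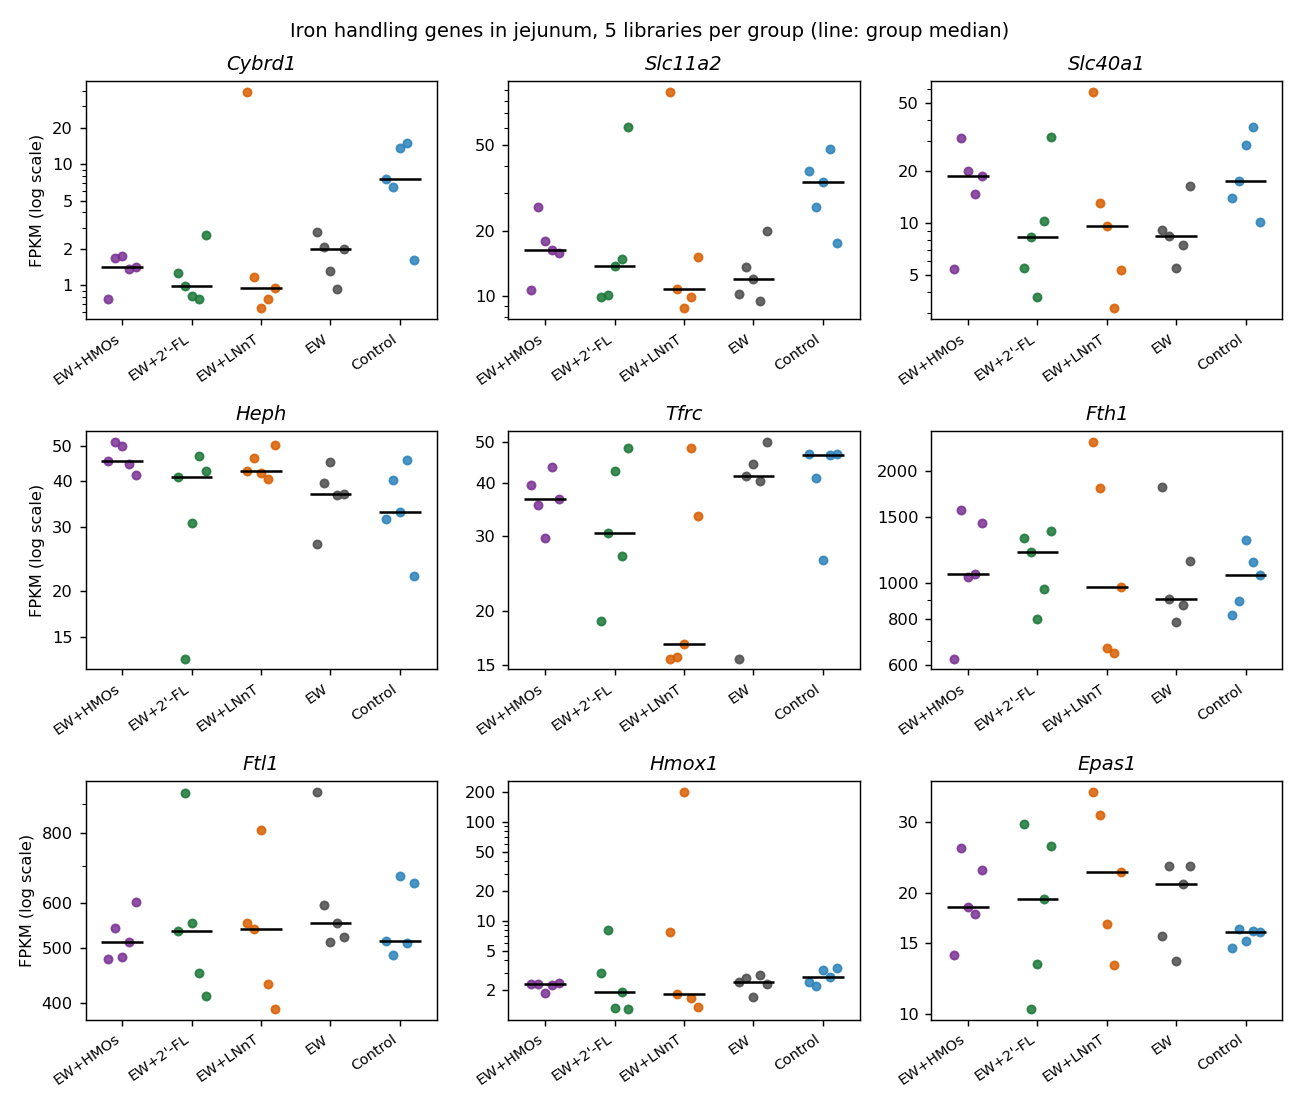
Level of each iron handling gene in every library, in FPKM on a log axis, with the 4 early-weaned groups left of Control; a point is a library and a line is the median of the group's 5 libraries. Cybrd1 medians are 0.951 to 1.99 FPKM in the early-weaned groups and 7.61 FPKM in Control, while EW+LNnT 1 lies at 39.6 FPKM, and Hmox1 in EW+LNnT 3 lies at 199 FPKM.

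The first comparison, each early-weaned group against Control, asks what early weaning did to the genes that take iron up. Cybrd1 (chromosome 2, 70948267 to 70973270, plus strand, GRCm39 as in the deposited table) was low in early-weaned jejunum. It had 0.774, 1.69, 1.74, 1.36 and 1.42 FPKM in EW+HMOs 1 to 5, and 1.26, 0.982, 0.816, 0.771 and 2.6 FPKM in EW+2'-FL 1 to 5. In EW+LNnT 1 to 5 it had 39.6, 1.16, 0.644, 0.766 and 0.951 FPKM, and in EW 1 to 5 it had 2.76, 2.06, 1.3, 0.925 and 1.99 FPKM. Control 1 to 5 had 7.61, 6.5, 13.5, 15.1 and 1.61 FPKM. Of the 20 early-weaned libraries 19 had at most 2.76 FPKM, below 4 of the 5 Control libraries, while EW+LNnT 1 was the highest of all 25 and Control 5 lay among the early-weaned values. These 2 libraries made the groups overlap.

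With all 25 libraries the edgeR test did not call Cybrd1 in any early-weaned group. The changes, log2 ratios from the TMM-scaled counts, were -2.61 ± 0.97 for EW+HMOs minus Control (± SE; edgeR adjusted p = 0.15), -2.78 ± 0.97 for EW+2'-FL (edgeR adjusted p = 0.13), 0.21 ± 0.91 for EW+LNnT (edgeR adjusted p = 0.92) and -2.29 ± 0.95 for EW (edgeR adjusted p = 0.28). The mean of the 4 early-weaned groups minus Control was -1.87 ± 0.65 (edgeR adjusted p = 0.077). DESeq2 on the same libraries called Cybrd1 in EW+2'-FL minus Control (-2.76 ± 0.88, DESeq2 adjusted p = 0.032), and limma on log2(FPKM + 1) called the mean (-1.65 ± 0.48, limma adjusted p = 0.038). Fits with only the groups compared, each group with all its libraries, called Cybrd1 in EW+HMOs (-2.61 ± 0.57, edgeR adjusted p = 0.012) and EW (-2.28 ± 0.57, 0.039). They did not call it in EW+2'-FL or EW+LNnT. Those fits called 0.619% to 25.1% of all genes in the comparisons with Control. The share of each single comparison is not given here. The calls of these fits, for Cybrd1 and for the genes below, therefore cannot be weighed against their own share. Leaving out EW+LNnT 1 changed the edgeR estimate in EW+LNnT and for the mean. In EW+HMOs, EW+2'-FL and EW the estimate stayed the same, while the SE and the adjusted p fell. Among the 25 fits that each left out a library, the fit without EW+LNnT 1 gave -2.61 ± 0.48 in EW+HMOs (edgeR adjusted p = 0.0046), -2.78 ± 0.49 in EW+2'-FL (0.0031), -3.26 ± 0.54 in EW+LNnT (0.0035), -2.29 ± 0.48 in EW (0.02) and -2.73 ± 0.32 for the mean (1.5e-05). That fit called 2.05%, 3.05%, 4.94%, 1.05% and 7.18% of all genes in these comparisons. It is shown because EW+LNnT 1 has the highest level of Cybrd1 itself, so its p-values do not stand apart from the values tested.

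In a fit that left out libraries by other genes, the 6 with pancreatic acinar transcripts (EW+LNnT 1 among them), Cybrd1 fell in all 4 groups. The changes were -2.45 ± 0.46 in EW+HMOs (edgeR adjusted p = 0.013), -3.08 ± 0.5 in EW+2'-FL (0.0046), -3.38 ± 0.57 in EW+LNnT (0.0096), -2.41 ± 0.49 in EW (0.025) and -2.83 ± 0.34 for the mean (0.00015). This fit had 3 Control and 3 EW+LNnT libraries and called 1.51%, 1.39%, 1.31%, 1% and 2.85% of all genes. Since it also left out EW+LNnT 1, the library with the most Cybrd1, its p-values do not stand wholly apart from the values tested either.

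The sex of the pups, read from Y-linked transcripts, moved with the groups, and EW+LNnT 1 also carried the highest acinar sum (3642 FPKM). With all libraries kept and the Y-linked share added to the model, the mean Cybrd1 change was -1.46 ± 0.78 (edgeR adjusted p = 0.3).

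Slc11a2 (chromosome 15, 100285779 to 100321973, minus strand) was also lower in most early-weaned libraries. It had 10.7, 25.9, 18, 16.4 and 15.8 FPKM in EW+HMOs 1 to 5, and 9.96, 10.1, 13.8, 14.8 and 60.9 FPKM in EW+2'-FL 1 to 5. In EW+LNnT 1 to 5 it had 88.1, 10.8, 8.79, 9.91 and 15.2 FPKM, and in EW 1 to 5 it had 10.2, 13.6, 12, 9.5 and 20 FPKM. Control 1 to 5 had 37.8, 25.9, 33.7, 48.2 and 17.6 FPKM. Of the 20 early-weaned libraries 15 lay below the lowest Control library, and 2, EW+2'-FL 5 and EW+LNnT 1, lay above the highest. These are the same 2 libraries in which Cybrd1 was the highest of its group.

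Group means of Slc11a2 were 17.4 ± 5.5 FPKM in EW+HMOs, 21.9 ± 21.9 in EW+2'-FL, 26.6 ± 34.5 in EW+LNnT, 13 ± 4.18 in EW and 32.6 ± 11.6 in Control (SD, n = 5 each). The edgeR test called no change from Control, at -0.83 ± 0.6 in EW+HMOs, -0.55 ± 0.6 in EW+2'-FL, -0.09 ± 0.59 in EW+LNnT and -1.33 ± 0.6 in EW on the log2 scale (edgeR adjusted p = 0.48, 0.7, 0.95 and 0.32). The mean of the 4 groups was -0.7 ± 0.45 (edgeR adjusted p = 0.35). With only the groups compared, Slc11a2 was called in EW (-1.33 ± 0.26, edgeR adjusted p = 0.012) and in no other early-weaned group. Without EW+LNnT 1 the mean was -1.05 ± 0.31 (edgeR adjusted p = 0.041). EW+LNnT 1 has the highest Slc11a2 level of all libraries, so this p-value does not stand apart from the values tested. Without EW+LNnT 1 and EW+2'-FL 5 the estimates were -0.84 ± 0.26 in EW+HMOs, -1.44 ± 0.28 in EW+2'-FL, -1.48 ± 0.28 in EW+LNnT and -1.33 ± 0.26 in EW. Since these 2 libraries were left out for their own Slc11a2 levels, the last estimates are a description with no test. Both libraries carried acinar transcripts (1446 and 3642 FPKM), and so did EW+LNnT 2, EW 1, Control 2 and Control 3, where Slc11a2 was 10.8, 10.2, 25.9 and 33.7 FPKM. Without all 6 of these libraries Slc11a2 fell in EW+2'-FL (-1.5 ± 0.33, edgeR adjusted p = 0.032), in EW+LNnT (-1.61 ± 0.37, 0.041) and for the mean (-1.34 ± 0.25, 0.0073), while it was not called in EW+HMOs (-0.89, 0.15) or EW (-1.35 ± 0.33, 0.057). The 6 include EW+LNnT 1 and EW+2'-FL 5, the 2 libraries with the most Slc11a2. These p-values therefore do not stand wholly apart from the values tested.

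**Figure D2:**
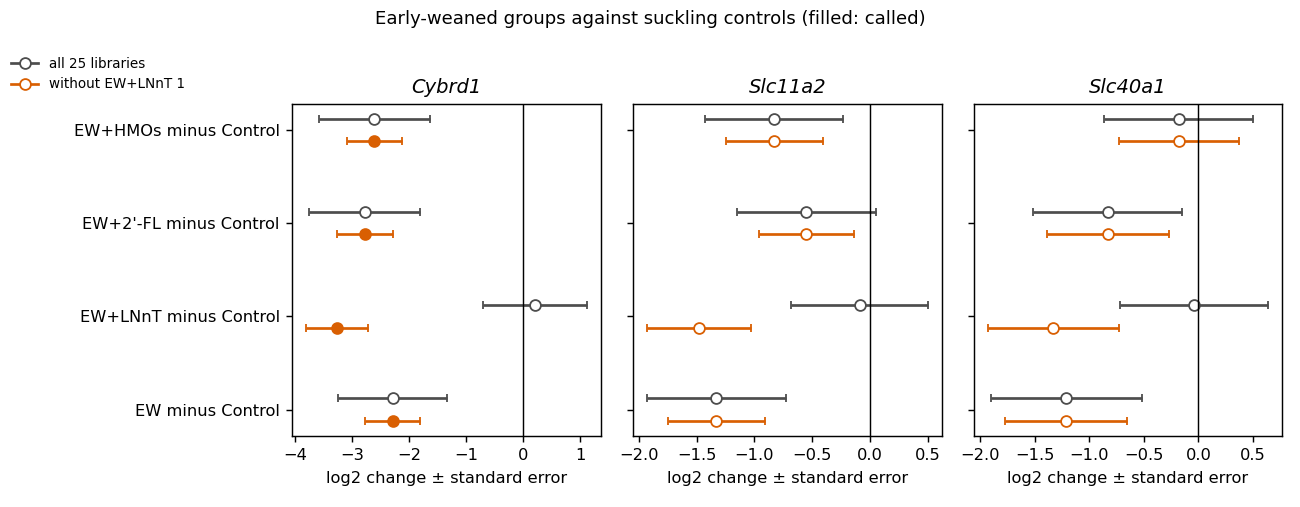
Change of Cybrd1, Slc11a2 and Slc40a1 in each early-weaned group minus Control, as log2 ratio with its SE, fitted with all 25 libraries and without EW+LNnT 1; filled markers passed an adjusted p of 0.05. The EW+LNnT estimate of Cybrd1 is 0.21 with all libraries and -3.26 without EW+LNnT 1, whereas the EW estimate is -2.29 in both fits.

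Of the genes that release iron to the blood side, Slc40a1 resembled the uptake genes and Heph did not. Slc40a1 (chromosome 1, 45947228 to 45965683, minus strand) had 5.45, 31.3, 20.1, 14.8 and 18.8 FPKM in EW+HMOs 1 to 5, and 5.46, 8.27, 3.71, 10.3 and 31.7 FPKM in EW+2'-FL 1 to 5. In EW+LNnT 1 to 5 it had 57.9, 13.1, 9.65, 3.2 and 5.32 FPKM, and in EW 1 to 5 it had 9.09, 8.43, 5.5, 7.44 and 16.4 FPKM. Control 1 to 5 had 14.1, 17.6, 28.6, 36 and 10.2 FPKM. The groups overlapped, with 11 of 20 early-weaned libraries below the lowest Control library and the EW+HMOs libraries running from 5.45 to 31.3 FPKM. The changes from Control were -0.18 ± 0.68 in EW+HMOs, -0.83 ± 0.68 in EW+2'-FL, -0.04 ± 0.68 in EW+LNnT and -1.21 ± 0.69 in EW (edgeR adjusted p = 0.93, 0.58, 0.98 and 0.46). Without EW+LNnT 1 and EW+2'-FL 5, the early-weaned libraries with the most Slc40a1, the mean of the 4 groups was -1.09 ± 0.35. Control 4, at 36 FPKM, stayed in that fit, so this estimate is a description with no test.

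Heph (chromosome X, 95498965 to 95618091, plus strand) was steadier. It averaged 46.5 ± 4.03 FPKM in EW+HMOs, 34.9 ± 13.6 in EW+2'-FL, 44.4 ± 3.95 in EW+LNnT, 37 ± 6.61 in EW and 34.5 ± 9.06 in Control (SD, n = 5 each). Its lowest library was EW+2'-FL 2 at 13.1 FPKM and its highest EW+HMOs 2 at 51.2 FPKM. The largest change from Control was 0.5 ± 0.26 in EW+HMOs (edgeR adjusted p = 0.3), so no difference beyond the spread was found.

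Across libraries, Cybrd1, Slc11a2 and Slc40a1 varied together. Heph correlated with them at 0.13 to 0.31 over the 25 libraries. The Pearson correlation of log2 CPM (counts scaled to library size) over the 25 libraries was 0.85 for Slc11a2 with Cybrd1 (Spearman's rho 0.78), 0.84 for Slc11a2 with Slc40a1 (rho 0.81) and 0.76 for Cybrd1 with Slc40a1 (rho 0.73). These are descriptions, because the 3 genes share libraries, depth and groups. Without EW+LNnT 1 and EW+2'-FL 5 the same values were 0.86, 0.77 and 0.69 over 23 libraries, and among the 18 early-weaned libraries of those they were 0.51, 0.73 and 0.58. Among these 18, Heph correlated with Slc11a2 at 0.49, with Slc40a1 at 0.32 and with Cybrd1 at 0.16, and Fth1 with Cybrd1 at 0.7, so the 3 genes did not stand apart from the others there. In Control, library 5 had the lowest and library 4 the highest level of each of the 3 genes.

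**Figure D3:**
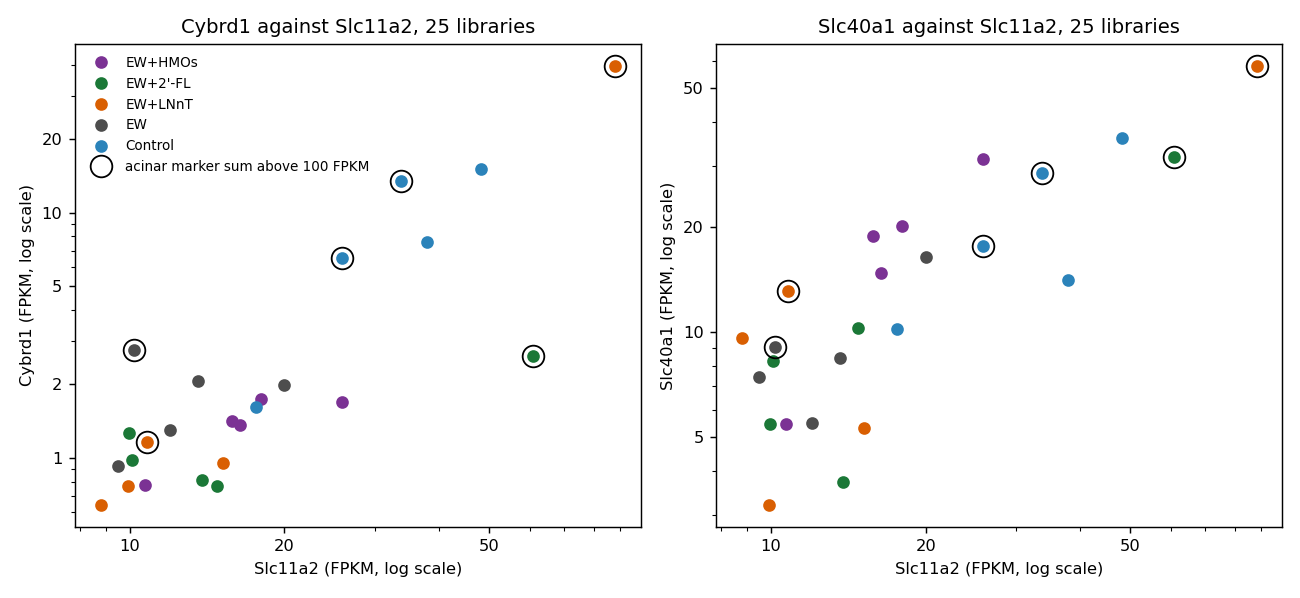
Cybrd1 and Slc40a1 against Slc11a2 in each of the 25 libraries, in FPKM on log axes, coloured by group, with a ring where acinar markers sum to more than 100 FPKM. EW+LNnT 1 is at the upper right in both panels (Slc11a2 88.1, Cybrd1 39.6 and Slc40a1 57.9 FPKM), and EW+2'-FL 5 has 60.9 FPKM of Slc11a2 but 2.6 FPKM of Cybrd1.

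Among all 10848 genes of at least 5 CPM searched, the gene closest to Slc40a1 after Slc11a2 was Pdx1 (Pearson r 0.83, rho 0.88 over 25 libraries), a transcription factor of the proximal small intestine and the pancreas. Pdx1 had 2.36, 11.2, 9.76, 8.12 and 10.7 FPKM in EW+HMOs 1 to 5, 3.44, 4.15, 2.93, 8.14 and 12.7 FPKM in EW+2'-FL 1 to 5 and 7.85, 4.43, 6.73, 1.25 and 6.43 FPKM in EW+LNnT 1 to 5. It had 5.92, 6.11, 2.09, 4.16 and 8.9 FPKM in EW 1 to 5 and 7.52, 6.79, 7.84, 8.99 and 4.68 FPKM in Control 1 to 5. EW+2'-FL 5 had the highest Pdx1 level of the 25 libraries and EW+LNnT 4, where Slc40a1 was 3.2 FPKM, the lowest. Gata4, another proximal marker, was 24.5 FPKM in EW+LNnT 1, where Slc40a1 was the highest, and 40.1 FPKM in EW+LNnT 4, beside a median of 39.3 FPKM over the 25 libraries. No correlation of Gata4 or Onecut2 with Slc40a1 is given here. The part that the position along the intestine had in the 3 genes' levels was not tested. The other genes closest to Slc11a2, Cybrd1 and Slc40a1 were Ppme1 (r 0.78 with Slc11a2), Hsd17b13 (0.78 with Cybrd1), the calcium-binding S100g (0.77 with Cybrd1) and the intestinal phosphatase Akp3 (0.79 with Slc40a1).

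The second comparison asks whether an oligosaccharide changed these genes in early-weaned pups. For EW+HMOs minus EW and EW+2'-FL minus EW the edgeR test called none of the 9 genes, none of which had an unadjusted p under 0.05; it also called 0% of all genes, although 921 and 1199 of them had an unadjusted p under 0.05 and DESeq2 called 55 and 48. The widest estimates were 1.03 ± 0.69 for Slc40a1 and 0.5 ± 0.6 for Slc11a2 in EW+HMOs minus EW, and 0.78 ± 0.6 for Slc11a2 and -0.49 ± 0.92 for Cybrd1 in EW+2'-FL minus EW (log2; edgeR adjusted p = 1 for each). These errors leave room for changes of more than 1 log2 unit.

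For EW+LNnT minus EW the edgeR test called none of the 9 and 0.172% of all genes, and 3 of the 9 had an unadjusted p under 0.05, as did 11.4% of all genes. Cybrd1 had 2.49 ± 0.96 (edgeR adjusted p = 0.3) and Slc11a2 1.25 ± 0.6 (0.44), and both estimates rested on EW+LNnT 1: without it they were -0.97 and -0.15. Hmox1 had 4.21 ± 1.05 (edgeR adjusted p = 0.096) and was called by DESeq2 (4.23 ± 0.89, adjusted p = 0.001), which called 1.88% of all genes it gave a p; the edgeR estimate was 0.6 without EW+LNnT 3. The direct comparison EW+2'-FL minus EW+LNnT gave -2.99 ± 0.98 for Cybrd1 (edgeR adjusted p = 0.44), 0.48 without EW+LNnT 1, and -3.9 ± 1.03 for Hmox1 (0.35). It called 0% of all genes, 1884 of which had an unadjusted p under 0.05, while DESeq2 called 86 genes, Hmox1 among them (-3.92 ± 0.89, adjusted p = 0.011).

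Counted over the 9 genes, the edgeR test called 0 for EW+HMOs minus Control (1.85% of all genes), 0 for EW+2'-FL minus Control (2.54%), 1 for EW+LNnT minus Control (10.6%), 0 for EW minus Control (0.953%) and 0 for the mean of the early-weaned groups (7.68%). At an unadjusted p under 0.05 the numbers of the 9 were 1, 1, 3, 2 and 1, beside 18.6%, 17.3%, 27.1%, 14% and 24.6% of all genes. DESeq2 called 0, 1 (Cybrd1), 1 (Hmox1), 0 and 0 of them, beside 6.16%, 7.04%, 17.1%, 3.12% and 15.1% of all genes it gave an adjusted p. Asked for any difference among the 5 groups, edgeR called Hmox1 (adjusted p = 0.0075), against 3.74% of all genes, and Cybrd1 had an adjusted p of 0.075. The median change of the 9 was -0.08, 0, 0.21, -0.12 and 0.05 in these comparisons, beside -0.03, 0.05, 0, 0.02 and 0.01 over all genes tested. The comparisons with Control share the same 5 Control libraries.

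Tfrc (chromosome 16, 32427738 to 32451612, plus strand), the carrier of 4 hairpins shown above, was low in a few early-weaned libraries. It had 39.5, 35.5, 29.7, 43.5 and 36.6 FPKM in EW+HMOs 1 to 5, 19, 30.5, 42.7, 27 and 48.3 FPKM in EW+2'-FL 1 to 5 and 15.5, 15.6, 16.8, 48.4 and 33.5 FPKM in EW+LNnT 1 to 5. It had 15.5, 41.5, 44.4, 40.5 and 49.9 FPKM in EW 1 to 5 and 46.8, 41.1, 26.4, 46.5 and 46.8 FPKM in Control 1 to 5. The 5 early-weaned libraries below the lowest Control library were EW+LNnT 1, 2 and 3, EW+2'-FL 1 and EW 1. In 4 of those 5 the crypt and proliferation markers were also the lowest (72.4, 95.4, 123 and 140 FPKM, against 164 FPKM or more elsewhere), and their part in the Tfrc level was not tested. EW+LNnT 3 had a crypt sum of 176 FPKM. No comparison called Tfrc with all libraries. The EW+LNnT minus Control change was -0.61 ± 0.27 (edgeR adjusted p = 0.15), and it was -0.9 (0.029) without EW+LNnT 4. In the libraries with Xist and no Y-linked transcripts, a fit added after seeing the data, it was -1.13 ± 0.21. The EW+LNnT libraries in that fit were 1, 2 and 3, each below the lowest Control library.

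The ferritin chains were the most abundant of the 9, and no comparison called either of them. Fth1 (chromosome 19, 9957962 to 9962456, plus strand) averaged 1147 ± 374 FPKM in EW+HMOs, 1135 ± 246 in EW+2'-FL, 1296 ± 771 in EW+LNnT, 1104 ± 419 in EW and 1040 ± 192 in Control (SD, n = 5 each). Its highest libraries were EW+LNnT 1 (2393 FPKM), EW 1 (1815 FPKM) and EW+LNnT 2 (1799 FPKM), all above the highest Control library at 1301 FPKM. Ftl1 (chromosome 7, 45107368 to 45109308, minus strand) averaged 523 ± 51.9, 578 ± 212, 545 ± 164, 626 ± 182 and 567 ± 87.1 FPKM in EW+HMOs, EW+2'-FL, EW+LNnT, EW and Control. Its highest libraries, EW 1 (946 FPKM), EW+2'-FL 2 (942 FPKM) and EW+LNnT 3 (810 FPKM), were partly others than those of Fth1. The changes from Control lay between 0.12 and 0.5 for Fth1 and between -0.04 and 0.18 for Ftl1 on the log2 scale. Reads of ferritin pseudogenes can be counted to either copy; Ftl1-ps1, which reached at most 12.1 FPKM, was the gene closest to Ftl1 (r 0.94), and Ftl2-ps reached 6.1 FPKM.

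Ftl1 and Tfrc went opposite ways across libraries (r -0.72, rho -0.64 over 25 libraries), and so, less closely, did Fth1 and Tfrc (r -0.53, rho -0.37). Fth1 went with Epas1 (r 0.72, rho 0.69) and Slc40a1 (r 0.68, rho 0.69), and Ftl1 with Hmox1 (r 0.6, rho 0.82). In EW 1, for example, Ftl1 had its highest level and Tfrc, at 15.5 FPKM, shared its lowest. EW 1 also had the highest sum of 7 erythroid genes, 3965 FPKM against 275 to 2022 FPKM elsewhere, mostly from globin transcripts, while the erythroid genes Slc4a1 and Ahsp reached at most 0.145 and 0.509 FPKM in any library. The part of blood in these levels was not tested.

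Hmox1 (chromosome 8, 75820249 to 75827217, plus strand) was the gene of the 9 that passed the test, and 1 library carried the result. It had 2.32, 2.3, 1.88, 2.28 and 2.38 FPKM in EW+HMOs 1 to 5, 2.97, 8.09, 1.31, 1.91 and 1.3 FPKM in EW+2'-FL 1 to 5 and 7.79, 1.83, 199, 1.66 and 1.36 FPKM in EW+LNnT 1 to 5. It had 2.44, 2.66, 1.7, 2.86 and 2.33 FPKM in EW 1 to 5 and 2.39, 2.18, 3.23, 2.74 and 3.31 FPKM in Control 1 to 5. Outside EW+LNnT 3, EW+2'-FL 2 and EW+LNnT 1 the level was 1.3 to 3.31 FPKM in every group. The EW+LNnT minus Control change was 4.01 ± 1.04 (log2; edgeR adjusted p = 0.019), a 16.1-fold difference, and without EW+LNnT 3 it was 0.4 ± 0.47 (edgeR adjusted p = 0.63). The call was also lost without Control 3 (0.055) or Control 5 (0.056). The EW+LNnT group therefore contained 1 library with a very high level and 3 libraries at or below 1.83 FPKM.

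EW+LNnT 3 also had the highest level of several genes that NRF2, the transcription factor of the oxidative stress response, is known to switch on. It had 264 FPKM of Gclc, a subunit of the enzyme that makes glutathione, 321 FPKM of the sulfiredoxin Srxn1, 140 FPKM of the thioredoxin reductase Txnrd1 and 63 FPKM of Gclm, the other subunit. Srxn1 was 16.9 to 75.6 FPKM and Txnrd1 25.2 to 52.1 FPKM in the other 24 libraries. EW+LNnT 3 also had the highest level of Nqo1 (46.4 FPKM), of Slc7a11 (1.03 FPKM) and of Bach1 (43.3 FPKM), a repressor of Hmox1 that haem inactivates. Other genes of this response were highest elsewhere, Gpx2 in EW+HMOs 1 (120 FPKM) and Gsta1 in EW+2'-FL 3 (579 FPKM). Nfe2l2, which encodes NRF2, was highest in Control 4 (95.7 FPKM). Macrophages, which express Hmox1, had a summed marker level of 123 FPKM in EW+LNnT 3, inside the range of 54.1 to 190 FPKM of the other libraries. The genes closest to Hmox1 by Pearson's r were Dnajb4 (0.9), Hsp90ab1 (0.89) and Dnajb1 (0.89), which encode heat-shock chaperones, and the rho of 0.38 for Dnajb4 shows that the likeness lay in few libraries.

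**Figure D4:**
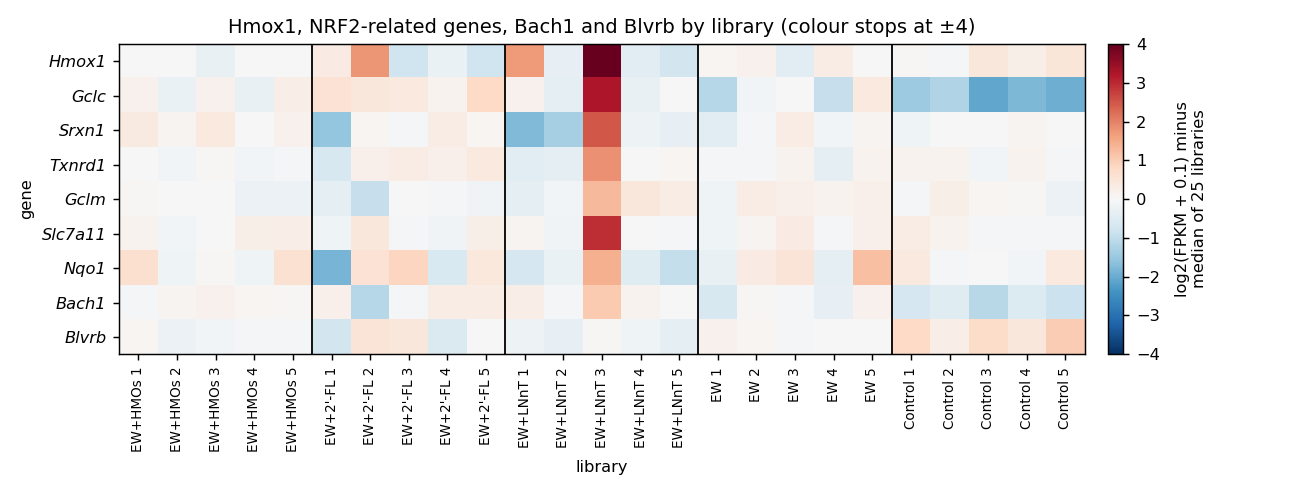
Hmox1 and 8 genes of the oxidative stress response and haem breakdown in the 25 libraries, as log2(FPKM + 0.1) minus the median of all libraries, with the colour scale ending at 4 units either way. EW+LNnT 3 is the highest library for Hmox1 (199 FPKM), Gclc (264 FPKM), Srxn1 (321 FPKM) and Txnrd1 (140 FPKM).

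Of the 11 NRF2 list genes, chosen like the other lists with earlier results of these data known, 3 rose and 0 fell in EW+LNnT minus Control, 1 rose in EW+2'-FL and none was called in EW+HMOs or EW. Over all genes 10.6% were called in EW+LNnT, 2.54% in EW+2'-FL, 1.85% in EW+HMOs and 0.953% in EW. Gclc rose in EW+LNnT by 3.16 ± 0.54 (log2; edgeR adjusted p = 0.0022) and in EW+2'-FL by 2.18 ± 0.52 (0.026). Unlike Hmox1, Gclc was not a matter of 1 library: it was 12.7 to 264 FPKM in the 20 early-weaned libraries and 6.59 to 12.1 FPKM in Control, without overlap, which held for 0.185% of all genes in this direction. The EW+LNnT change of Gclc stayed called in each of 25 fits that left out 1 library, between 1.7 and 3.4, whereas the EW+2'-FL call was lost without Control 1, 3, 4 or 5 or EW+2'-FL 1 or 5 (edgeR adjusted p up to 0.083) and without the 6 libraries with pancreatic transcripts (0.096). Bach1 rose in EW+LNnT by 1.18 ± 0.25 (edgeR adjusted p = 0.0069) and Slc7a11, a cystine transporter, by 2.32 ± 0.71 (0.038), and the Slc7a11 estimate was -0.09 without EW+LNnT 3 and its call was also lost without any 1 of the 5 Control libraries. Without the 6 libraries with pancreatic transcripts the EW+LNnT calls of Bach1 (1.21, edgeR adjusted p = 0.073) and Slc7a11 (2.92, 0.092) were lost.

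Epas1 (chromosome 17, 87061128 to 87140838, plus strand) had its narrowest spread in Control. It had 14, 25.8, 18.4, 17.7 and 22.7 FPKM in EW+HMOs 1 to 5, 29.6, 10.3, 13.3, 19.3 and 26.1 FPKM in EW+2'-FL 1 to 5 and 35.5, 31.1, 16.7, 13.2 and 22.5 FPKM in EW+LNnT 1 to 5. It had 15.6, 23.3, 13.5, 21 and 23.3 FPKM in EW 1 to 5 and 14.6, 16.2, 15.2, 16.1 and 16 FPKM in Control 1 to 5. Of the early-weaned libraries 14 of 20 lay above the highest Control library and 5 below the lowest, so the groups overlapped. The changes from Control were 0.42 ± 0.31 in EW+HMOs, 0.39 in EW+2'-FL, 0.77 ± 0.31 in EW+LNnT and 0.3 ± 0.31 in EW, none of them called in the fit of all libraries (edgeR adjusted p = 0.5 in EW+HMOs and 0.11 in EW+LNnT). The EW+LNnT change was called without EW+LNnT 4 (0.95 ± 0.3, edgeR adjusted p = 0.04). It was 1.11 ± 0.26 in the libraries with Xist and no Y-linked transcripts, a fit added after seeing the data. The EW+HMOs change was called with only the groups compared. Its estimate was above 0 in all 4 groups, while those of Slc11a2 and Slc40a1 were below 0, none of them called with all libraries.

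Among 19 genes of the hypoxia-inducible factors and their known targets, all tested, 1 fell and 0 rose against Control in EW+HMOs, EW+2'-FL and EW, and 2 fell and 2 rose in EW+LNnT, beside the shares of all genes given for the NRF2 list. Ankrd37, a target of these factors, was the gene that fell in every group. It had 0.64, 1.81, 1.87, 4.5 and 2.17 FPKM in EW+HMOs 1 to 5, 1.07, 3.59, 1.94, 2.23 and 3.93 FPKM in EW+2'-FL 1 to 5 and 2.78, 0.754, 1.01, 2.33 and 2.63 FPKM in EW+LNnT 1 to 5. It had 1.16, 0.782, 1.08, 1.11 and 2.09 FPKM in EW 1 to 5 and 4.74, 6.76, 9.38, 13.9 and 6.33 FPKM in Control 1 to 5. All 20 early-weaned libraries lay below all 5 Control libraries, as they did for 0.741% of all genes in this direction. The log2 change was -1.84 ± 0.44 in EW+HMOs (edgeR adjusted p = 0.029), -1.72 ± 0.44 in EW+2'-FL (0.034), -2.02 ± 0.44 in EW+LNnT (0.0083) and -2.73 ± 0.45 in EW (0.0025). The Ankrd37 calls in EW+LNnT and EW stood in each of the 25 fits that left out 1 library. The EW+HMOs call was lost without Control 3 or 4 or EW+HMOs 1, 2, 3 or 5 (edgeR adjusted p up to 0.086), and the EW+2'-FL call without Control 3, 4 or 5 or EW+2'-FL 1, 3 or 4 (up to 0.11). Without the 6 libraries with pancreatic transcripts Ankrd37 was called only in EW, with edgeR adjusted p = 0.056 (EW+HMOs), 0.063 (EW+2'-FL) and 0.066 (EW+LNnT) in the others. With the Y-linked share in the model the EW+HMOs and EW+2'-FL calls were lost (0.06 and 0.11), and in the libraries with Xist alone so was the EW call (-2.98 ± 0.98, 0.53). Egln3, an oxygen-sensing prolyl hydroxylase and itself a target, was 1.78 to 14.2 FPKM in early-weaned libraries and 15 to 27.1 FPKM in Control, and it fell in EW+LNnT (-1.35 ± 0.35, edgeR adjusted p = 0.018, 0.054 without EW+LNnT 2 and 0.17 without the 6 libraries with pancreatic transcripts). The genes that rose in EW+LNnT were Adm (1.53), which encodes adrenomedullin, and Hif1a (0.78; edgeR adjusted p = 0.033), which was the highest in EW+LNnT 3 at 26.6 FPKM. Both calls were lost without EW+LNnT 1 or 2 or Control 1, 2, 3 or 5, and Hif1a also without EW+LNnT 3 (edgeR adjusted p = 0.14 for Adm without EW+LNnT 1 and 0.094 for Hif1a without EW+LNnT 3). Both were also lost without the 6 libraries (0.42 for Adm and 0.27 for Hif1a).

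Among 51 other genes of iron and haem handling, 46 were tested. Against Control, 1 rose and 1 fell in EW+HMOs, 2 rose and 2 fell in EW+2'-FL, 3 rose and 4 fell in EW+LNnT, and 2 rose and 0 fell in EW. The 7 of 46 called in EW+LNnT stand beside 10.6% of all genes, and the counts in EW+HMOs, EW+2'-FL and EW beside 1.85%, 2.54% and 0.953%. None was called against EW in any oligosaccharide group. Ltf, which encodes the iron-binding milk and neutrophil protein lactoferrin, rose in all 4 groups, by 2.38 in EW+HMOs (edgeR adjusted p = 0.011), 2.26 in EW+2'-FL (0.015), 1.77 in EW+LNnT (0.024) and 2.18 in EW (0.03). Its level remained low, at 0.0703 to 0.603 FPKM in early-weaned libraries and 0.014 to 0.136 FPKM in Control. Steap4, a metalloreductase of the Steap family, rose by 2.55 ± 0.48 in EW+2'-FL (edgeR adjusted p = 0.0048) and 2.1 ± 0.47 in EW (0.03), likewise at a low level of at most 2.18 FPKM. The EW calls of Ltf and Steap4 were each lost in 7 of the 25 fits without 1 library, among them those without Control 1, 2, 3 or 5 and EW 2 (edgeR adjusted p up to 0.098 for Ltf and 0.093 for Steap4), and the EW+LNnT call of Ltf in 3, without Control 3, Control 5 or EW+LNnT 2. Without the 6 libraries with pancreatic transcripts Ltf was called in none of the 4 groups (edgeR adjusted p = 0.071 in EW+HMOs, 0.12 in EW+2'-FL, 0.29 in EW+LNnT and 0.099 in EW). With the Y-linked share in the model the EW calls of Ltf and Steap4 were lost as well (0.073 and 0.072).

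Of the 12 haem genes, 0 rose and 1 fell in EW+HMOs, 0 rose and 2 fell in EW+2'-FL, 1 rose and 4 fell in EW+LNnT, and none was called in EW. These counts stand beside 1.85%, 2.54%, 10.6% and 0.953% of all genes called in the same comparisons. Blvrb, which encodes a biliverdin reductase, fell in the 3 oligosaccharide groups, with changes of -0.68 (EW+HMOs), -0.71 (EW+2'-FL) and -0.76 (EW+LNnT, edgeR adjusted p = 0.0082). Its change in EW was close to these but not called (-0.62 ± 0.17, edgeR adjusted p = 0.077), and no oligosaccharide group differed from EW by more than its SE (-0.07, -0.09 and -0.15, each ± 0.17). Hmox2, the constitutive haem oxygenase, fell in EW+2'-FL (-0.49) and EW+LNnT (-0.55). In EW+LNnT, Ppox (-0.54) and Urod (-0.39) of haem synthesis also fell, whereas ferrochelatase Fech (0.77) and the mitochondrial iron importer Slc25a28 (1.26) rose. These calls were near the threshold: with 1 library left out, the EW+LNnT call was lost in 19 of 25 fits for Urod, 16 for Fech, 7 for Slc25a28 and 5 for Ppox, in each case without EW+LNnT 1 and without EW+LNnT 2 among others. The Blvrb call was lost in 8 fits in EW+HMOs and 4 in EW+2'-FL, and the Hmox2 call in 13 in EW+2'-FL, in each case without Control 3 or Control 5 among others, while both genes stayed called in EW+LNnT in all 25 of these fits. Without the 6 libraries with pancreatic transcripts Hmox2 was not called in EW+LNnT (-0.51, edgeR adjusted p = 0.091), nor were Fech (0.26, 0.68), Slc25a28 (0.2, 0.84), Ppox (-0.33, 0.31) and Urod (-0.27, 0.3), nor Blvrb in EW+HMOs (-0.75, 0.051) and EW+2'-FL (-0.79, 0.052). With the Y-linked share in the model the Blvrb calls in EW+HMOs (-0.57, edgeR adjusted p = 0.11) and EW+2'-FL (-0.57, 0.11) were lost. So were those of Hmox2 in EW+2'-FL (-0.48, 0.11) and Fech in EW+LNnT (0.77, 0.052). The EW+LNnT calls of Blvrb, Hmox2, Ppox, Urod and Slc25a28 stayed. Over the 12 haem genes the median change was -0.27 in EW+HMOs, -0.21 in EW+2'-FL, -0.4 in EW+LNnT and -0.22 in EW minus Control, beside -0.03, 0.05, 0 and 0.02 over all genes tested.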

How the data were processed

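Whole numbers per Ensembl gene, the deposited counts, were taken as the authors made them, and the FPKM are the authors' values, scaled to gene length and library size, in a table with gene symbols and GRCm39 positions. The genome was GRCm39 and the tools HISAT2 2.2.1, cutadapt 1.9, edgeR, DESeq2 and StringTie 2.1.6, per the submitters' processing notes; their roles and the annotation release are not given in the sources used here. RNA was poly(A)-selected and libraries kept the strand, per the labels' protocols.

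After TMM scaling, edgeR 4.0.16 (R 4.3.3) fitted the counts with 1 mean per group over all 25 libraries; the robust quasi-likelihood test ran on 22131 genes of 57132 (99.98% of counts), with Benjamini-Hochberg adjustment over all of them and a threshold of 0.05. An SE is the log2 change divided by the square root of its F. The procedure was tested on simulated data with 200 changed genes. Between groups, the 9 genes were all described; list genes were named if called, up to 6 per list and comparison, and likeness was ranked by Pearson's r. The members and lists were chosen with earlier results of these data known.

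Alternatives were DESeq2 1.42.0, DESeq2 size factors, no count filter, limma 3.58.1 on log2(FPKM + 1), the replicate number as a block, the Y-linked share as a covariate, only the groups compared, and fits without 1 library, without the 3 libraries highest on the first component or without the 6 with pancreatic transcripts. Fits without EW+LNnT 1 and EW+2'-FL 5 together, and with only the libraries that had Xist and no Y-linked transcripts, were added after seeing the data. Sensitivity to counting error is small at 58.7 to 89.6 M counts for genes well above the floor, where the number of libraries limits the precision. It need not be small for genes of very low level, such as Ltf (0.014 to 0.603 FPKM) and Slc7a11 (0.03 to 1.03 FPKM).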

Additional observations from a re-analysis of the deposited data

Results flagged for a closer look

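In 13 of 45 sets of 5 libraries (9 genes in 5 groups) the highest or lowest library stood apart from the other 4 by more than 0.71 of the set's whole range. This is Dixon's limit, which about 1 in 20 independent sets of normal values pass. The FPKM were not put on a log scale, and the sets share libraries and genes that vary together. The 13 of 45 can therefore not be weighed against 1 in 20. EW+2'-FL 5 stood apart for Slc11a2 at 60.9 FPKM (others 9.96 to 14.8), for Cybrd1 at 2.6 FPKM (0.771 to 1.26) and for Slc40a1 at 31.7 FPKM (3.71 to 10.3). EW+LNnT 1 stood apart for the same genes, at 88.1 FPKM of Slc11a2 (others 8.79 to 15.2), 39.6 FPKM of Cybrd1 (0.644 to 1.16) and 57.9 FPKM of Slc40a1 (3.2 to 13.1). For Tfrc the low libraries were EW 1 at 15.5 FPKM (others 40.5 to 49.9) and Control 3 at 26.4 FPKM (41.1 to 46.8). For Ftl1 the high libraries were EW+2'-FL 2 at 942 FPKM (others 410 to 554) and EW 1 at 946 FPKM (513 to 595). For Hmox1 EW+HMOs 3 was low at 1.88 FPKM (others 2.28 to 2.38), and EW+2'-FL 2 at 8.09 FPKM (1.3 to 2.97) and EW+LNnT 3 at 199 FPKM (1.36 to 7.79) were high.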

How the results depend on the processing

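The number of the 9 genes called depended on a few libraries. With all 25 libraries it was 1 for EW+LNnT minus Control, 1 for any difference among groups and 0 elsewhere. Without the 3 libraries apart it was 1 for EW+HMOs, 1 for EW+2'-FL, 2 for EW+LNnT, 1 for EW and 2 for the early-weaned mean, each minus Control, 1 for EW+LNnT minus EW and 2 for any difference. Without the 6 libraries with pancreatic transcripts these were 1, 2, 2, 1 and 2 against Control and 3 for any difference; without EW+LNnT 1 and EW+2'-FL 5 they were 1, 2, 3, 2 and 2 against Control and 3 for any difference. Over all genes the comparisons with Control called 3.11% to 10.4% without the 3 libraries, 1% to 2.85% without the 6, 1.03% to 6.23% without EW+LNnT 1 and EW+2'-FL 5, which were chosen by their own levels of the genes, and 0.619% to 25.1% with only the groups compared. With only the groups compared it was 2 for EW+HMOs (Cybrd1 and Epas1), 0 for EW+LNnT and 2 for EW minus Control (Cybrd1 and Slc11a2). In the libraries with Xist alone it was 2 for EW+LNnT minus Control, 2 for EW+2'-FL minus EW+LNnT and 3 for any difference, beside 14.5%, 10.3% and 8.65% of all genes. DESeq2 gave 1 for EW+2'-FL minus Control, 1 for EW+LNnT minus EW, 1 for EW+2'-FL minus EW+LNnT and 2 for any difference, beside 7.04%, 1.88%, 0.382% and 14.9% of all genes; limma gave 0 for EW+LNnT minus Control, 1 for the mean (Cybrd1) and 0 for any difference, beside 9.94%, 7.94% and 3.02%; the Y-linked covariate gave 0 for any difference, beside 1.91%. With 1 library left out the counts ranged from 0 to 1 for EW+HMOs, EW+2'-FL and EW minus Control and for EW+LNnT minus EW, from 0 to 3 for EW+LNnT minus Control, from 0 to 2 for the mean and from 1 to 2 for any difference. Of these fits, only the one without EW+LNnT 1 has its shares of all genes given above. Where libraries were left out, no share is given for EW+LNnT minus EW or for any difference. Counts without a share are not read as a result about the 9 genes.

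With the replicate number as a block, 0 of the 9 genes were called for EW+LNnT minus Control and 0 for any difference; Hmox1 then had 2.58 (edgeR adjusted p = 0.19). Over 50 pairs of same-numbered libraries of different groups the deviations correlated at -0.219 to 0.436 (median 0.0172), with 9 pairs over 0.1, so the numbers were not taken as a pairing. The Hmox1 call in EW+LNnT minus Control was also lost in limma (1.08, adjusted p = 0.35), without the 6 libraries (4.67, edgeR 0.083), with only the groups compared (4.02, 0.098), in the libraries with Xist alone (4.65, 0.058), and without Control 3 (0.055), Control 5 (0.056) or EW+LNnT 3 (0.63); over single left-out libraries it ranged from 0.4 to 4.33. For EW+LNnT minus EW the sign turned without the 3 libraries apart, the 6 libraries, EW+LNnT 1 with EW+2'-FL 5, and EW+LNnT 1: Slc11a2 had -0.22, -0.26, -0.15 and -0.15, and Cybrd1 -1.25, -0.97, -0.97 and -0.97. For EW+2'-FL minus EW+LNnT Cybrd1 had 0.71, 0.3, 0.02 and 0.48. Single left-out libraries gave -0.15 to 1.48 and -0.97 to 2.8 for Slc11a2 and Cybrd1 in EW+LNnT minus EW, and -3.43 to 0.48 for Cybrd1 in EW+2'-FL minus EW+LNnT. Cybrd1 in EW minus Control kept its direction, from -2.56 to -2 over single left-out libraries. Epas1 was called in EW+HMOs minus Control (0.42, edgeR adjusted p = 0.038) with only the groups compared.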
